A study of Mus musculus with 30 samples.

Results

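Oxidative phosphorylation runs on the subunits of complexes I to V, which are encoded in the nucleus for the greater part and in the mitochondrial genome for the rest. Their mRNAs were followed in the mouse haematopoietic stem and progenitor lines HPCLSK and HPC7. Members were taken by symbol: genes whose names start with Ndufa, Ndufb, Ndufc, Ndufs, Ndufv, Uqcr, Cox4i, Cox5 to Cox8 or Atp5, the genes Sdha to Sdhd, and the mitochondrially encoded mRNAs, leaving out 7 pseudogene symbols. This gave 110 of 50686 counted genes, 97 nuclear and 13 mitochondrial. The rule also takes in the 8 Ndufaf genes, which are assembly factors of complex I and not subunits, and they are given here as a class of their own. The other nuclear classes held 7 core and 32 accessory genes of complex I, 4 of complex II, 8 of complex III, 21 of complex IV and 17 of complex V.

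Complex I takes electrons from NADH and complex II from succinate, complex III passes them to cytochrome c, and complex IV hands them to oxygen. Complexes I, III and IV pump protons out of the matrix, and complex V, the ATP synthase, uses their return to make ATP. Complex II is encoded in the nucleus alone, whereas the other complexes combine nuclear subunits with mitochondrially encoded ones. Blood stem cells are known for a low respiratory rate that increases as they leave quiescence, and part of the cellular STAT3 has been reported inside mitochondria.

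In each line, cells had been transduced with a retroviral vector for STAT3Y640F, for STAT3 or for dsRed alone (empty vector). STAT3 is a transcription factor downstream of cytokine receptors, and STAT3Y640F carries a phenylalanine for a tyrosine in the SH2 domain, a change known to activate it. The labels of the RNA samples give the strain as C57BL/6N for HPCLSK and 129SV for HPC7, whereas those of the HPC7 chromatin samples give C57BL/6N. All groups were kept in IMDM with serum and stem cell factor, HPCLSK on plates coated with agarose, and no group was treated. Each of the 6 groups had 3 libraries that the series text calls technical replicates, so p-values measure the spread between libraries of a group and not between separate transductions. The other 12 of the 30 samples, from chromatin, were not analysed here. Both lines are established ones that still expressed Stat3 with empty vector, and the promoter of the vectors is not given in the sources used here. Stat3 mRNA averaged 1901 CPM with STAT3Y640F, 599 with STAT3 and 355 with empty vector in HPCLSK, and 669 with STAT3Y640F, 996 with STAT3 and 225 with empty vector in HPC7. CPM are counts per 1000000 of the normalised library total. The form of STAT3 and the level of Stat3 mRNA therefore differ together between the groups.

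Library totals ran from 9537258 to 38556669 counts, with a median of 22641252, so that 3 counts in a library correspond to between 0.0778 and 0.315 CPM. Mitochondrially encoded mRNAs held 1.68 to 3.15% of the counts and nuclear members 0.897 to 1.29%. The mitochondrial share rests on 7 mRNAs, since the other 6 were at 0 in all libraries. The 10 haematopoietic progenitor markers were each found at 1 CPM or more on average and summed to 3208 to 5566 CPM per group, with shifts between groups that are given beside the members' changes. Fibroblast and stromal markers summed to at most 0.527 CPM, with 3 of 6 at 0. In HPCLSK, replicate 1 of STAT3Y640F and replicate 1 of empty vector stood apart from the other libraries of their groups. In HPC7, the empty vector libraries differed more among themselves than the other groups did, and their share of mitochondrially encoded mRNA was 3.15, 1.86 and 2.83%. Counts are also given without the HPCLSK pair where leaving it out moved them. The lines were sequenced on different flow cells, so that line and sequencing run cannot be told apart.

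A member is said here to have risen or fallen when edgeR's quasi-likelihood test gave a Benjamini-Hochberg adjusted p under 0.05 over all genes tested. Of the 110 members, 94 passed the filter on low counts in each line and 96 over both. No counts were found in any library for 9, namely Ndufb4c, Cox8b, Cox8c and 6 mitochondrial genes. Per kb of exon, the most abundant nuclear members over the 18 libraries were the catalytic ATP synthase subunits Atp5a1 at 424 and Atp5b at 368 CPM per kb, followed by Cox8a at 281, Cox6a1 at 241, Cox6b1 at 240 and Cox4i1 at 211 CPM per kb, all subunits of complex IV.

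In HPCLSK, STAT3Y640F went with a small upward shift over most of the nuclear chain. Against empty vector, 42 of 94 members rose and 11 fell, while 58.5% of all 12552 genes passed in either direction, 30.6% upward and 28.0% downward. The median log2 fold change was 0.12 over the 87 nuclear members tested and -0.01 over all genes. Against STAT3, 49 members rose and 5 fell, beside 53.8% of all genes (28.6% upward), and the nuclear median was 0.19 beside 0.01 for all genes. These comparisons share the STAT3Y640F libraries. Progenitor markers moved in the same comparison: with STAT3Y640F against empty vector, 2 of 10 rose and 5 fell, and the list summed to 3630 CPM with STAT3Y640F and 5566 CPM with empty vector. Kit averaged 259 CPM with STAT3Y640F and 744 with empty vector, Cd34 983 CPM with STAT3Y640F and 2345 with empty vector, and Spi1 426 CPM with STAT3Y640F and 171 with empty vector. Their part in the members' change was not tested. In bulk libraries, fewer cells of a kind and less RNA per cell cannot be told apart. Without the pair of libraries that stood apart, 34 rose and 12 fell against empty vector, and 47 rose and 8 fell against STAT3. Nearly all changes were under 2-fold: Cox6b2 alone passed that size, in a direction opposite to most members, whereas 16.2% of all genes did against empty vector, 9.62% upward and 6.57% downward.

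Complex IV carried several of the clearest rises. Cox4i1, the ubiquitous isoform of subunit 4 (chr8:120668222-120674207), had 405, 402 and 395 CPM with STAT3Y640F, 310, 314 and 297 CPM with STAT3, and 306, 313 and 303 CPM with empty vector. All STAT3Y640F libraries lay above all others, and the log2 fold change was 0.39 ± 0.04 (SE) against empty vector (adjusted p = 2.1e-05). Cox7a2, the widely expressed isoform of subunit 7a, had 116, 110 and 111 CPM with STAT3Y640F, 87.8, 89.4 and 79.6 CPM with STAT3, and 83.4, 83.9 and 83.4 CPM with empty vector. Again no STAT3Y640F library overlapped the other groups, with a log2 fold change of 0.44 ± 0.05 against empty vector (adjusted p = 4.0e-05). Cox5a, Cox5b, Cox6a1, Cox6b1, Cox7b and Cox8a rose by 0.19 to 0.28 on the log2 scale against empty vector. So 8 of 14 tested genes of the complex were higher and 3 lower, beside 30.6% of all genes upward and 28.0% downward. The summed level of the complex was 1630 ± 22.5 CPM with STAT3Y640F, 1381 ± 50.2 with STAT3 and 1445 ± 19.0 with empty vector (SD, n = 3 each).

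The 3 genes of this complex that fell were of other kinds. Cox7a2l, a relative of subunit 7a that helps join complexes III and IV into supercomplexes, had 78.3, 81.3 and 74.0 CPM with STAT3Y640F, 92.3, 96.0 and 86.2 CPM with STAT3, and 97.3, 88.3 and 97.2 CPM with empty vector. It fell by 0.27 on the log2 scale against empty vector (adjusted p = 0.0034), the opposite of its relative Cox7a2. Ndufa4, named as a complex I gene but now known to bind complex IV, had 138, 156 and 158 CPM with STAT3Y640F, 138, 149 and 138 CPM with STAT3, and 189, 181 and 176 CPM with empty vector. It was lower with both forms, by -0.26 ± 0.06 for STAT3Y640F (adjusted p = 0.0033) and -0.36 ± 0.06 for STAT3 (adjusted p = 0.0030).

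Cox6b2, an isoform of subunit 6b known from testis and sperm, was rare but close to lost. It had 0, 1 and 1 counts with STAT3Y640F, 4, 8 and 4 with STAT3, and 21, 18 and 23 with empty vector. These are 0, 0.0653 and 0.0489 CPM with STAT3Y640F, 0.325, 0.380 and 0.413 CPM with STAT3, and 1.56, 0.803 and 1.33 CPM with empty vector, with no overlap between groups. The ratio of STAT3Y640F to empty vector was 0.0339 (95% exact counting interval 0.00402 to 0.128, from 2 against 62 counts), and the adjusted p was 4.7e-05. The ratio of STAT3 to empty vector was 0.319, from 16 against 62 counts, with an adjusted p of 0.016 that missed the threshold in 4 of 6 fits with 1 library left out. Its ubiquitous partner Cox6b1 had 176 ± 5.88 CPM with STAT3Y640F, 148 ± 5.74 with STAT3 and 149 ± 9.19 with empty vector. The nearest tested neighbours of Cox6b2 did not all share its fall: Tmem150b, 26543 bp away, fell by 1.57 on the log2 scale against empty vector, while Kmt5c, 4278 bp away, stood at 0.12 (adjusted p = 0.21), Tmem238 at -0.31 (adjusted p = 0.32) and Rpl28 at 0.03 (adjusted p = 0.85). In HPC7 the gene had 1 count in all 9 libraries.

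The stretch just upstream of the start of Cox6b2 is shown because this gene had the largest change of all members in either line. It is 250 bases at chr7:4753095-4753344 on the minus strand of GRCm38.p6, from RefSeq, and none of 4 motifs searched on both strands was found in it or in the 50 bases after the start (NRF1 core GCATGCG, ETS or GABP CCGGAAG, YY1 AAGATGG and STAT TTCNNNGAA).
Cox6b2 upstream: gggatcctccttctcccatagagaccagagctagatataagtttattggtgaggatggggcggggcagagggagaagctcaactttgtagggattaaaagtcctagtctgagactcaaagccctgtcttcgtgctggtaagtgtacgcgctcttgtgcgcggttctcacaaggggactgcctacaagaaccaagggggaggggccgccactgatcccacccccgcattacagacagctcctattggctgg
Among all 32851 RefSeq promoter windows of 300 bases, the NRF1 core occurred in 3.58%, the ETS motif in 8.86%, the YY1 motif in 6.34% and the STAT motif in 8.30%. NRF1, GABP and YY1 are known regulators of respiratory chain genes.

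Complex III, which takes electrons from ubiquinol, rose in 5 of 8 genes against empty vector and in 7 of 8 against STAT3, and none fell. Of all genes, 30.6% rose and 28.0% fell against empty vector, and 28.6% rose and 25.2% fell against STAT3. Uqcrq, a small subunit, led with 125, 128 and 111 CPM with STAT3Y640F, 84.5, 96.7 and 89.1 CPM with STAT3, and 77.9, 90.8 and 87.3 CPM with empty vector. The STAT3Y640F libraries lay above all others (0.51 ± 0.08 against empty vector, adjusted p = 0.00019). The large core proteins moved less: Uqcrc1 averaged 262 ± 5.10 CPM with STAT3Y640F and 240.2 ± 8.55 with empty vector, a log2 fold change of 0.14, and Uqcrc2 averaged 221 CPM in both.

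In complex V, 7 of 17 genes rose and 2 fell against empty vector, beside 30.6% of all genes upward and 28.0% downward. Atp5k, subunit e of the membrane part, had 68.8, 64.9 and 71.4 CPM with STAT3Y640F, 47.2, 51.9 and 49.7 CPM with STAT3, and 52.1, 49.5 and 50.2 CPM with empty vector. It was higher in every STAT3Y640F library (0.45 ± 0.06, adjusted p = 7.3e-05). Atp5b, the catalytic beta subunit, had 1456, 1438 and 1386 CPM with STAT3Y640F, 1110, 1187 and 1145 CPM with STAT3, and 1263, 1245 and 1225 CPM with empty vector. Its log2 fold change was 0.21 against empty vector and 0.32 against STAT3, since the STAT3 libraries were the lowest. Atp5a1, the alpha subunit, did not pass, at 1158 CPM with STAT3Y640F and 1169 CPM with empty vector. Atp5s, also called coupling factor B, fell by 0.53 on the log2 scale and the central stalk subunit Atp5e by 0.16. The complex summed to 4306 ± 31.2 CPM with STAT3Y640F, 3672 ± 94.4 with STAT3 and 3973 ± 61.7 with empty vector.

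A stretch upstream of Atp5k is shown because it held a match to the core of the NRF1 motif. It lies at chr5:108434430-108434459 on the minus strand of GRCm38.p6 and its first base is 60 bases before the RefSeq start. The gene interval in the deposited files, which ends at base 108434448, begins within it. Capitals mark 8 bases where matches on both strands overlap. The RefSeq window of 300 bases, which adds the 50 bases after the start, also held the ETS motif.
Atp5k upstream: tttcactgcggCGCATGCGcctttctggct

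In complex I of HPCLSK, 17 of 29 accessory genes rose and 2 fell against empty vector, and 1 of 7 core genes rose and none fell. Against STAT3 the counts were again 17 and 2 for accessory genes, and 3 rises and no falls for core genes. Of all genes, 30.6% rose and 28.0% fell against empty vector, and 28.6% rose and 25.2% fell against STAT3. The share of core genes that passed against empty vector was 14.3%, below that of all genes. Whether the accessory and core genes differ was not tested. The core gene that rose against empty vector was Ndufs1, the largest iron-sulphur subunit, with 173, 159 and 153 CPM with STAT3Y640F, 141, 146 and 144 CPM with STAT3, and 133, 136 and 145 CPM with empty vector (0.24 ± 0.05, adjusted p = 0.0030). Among accessory genes the largest rise was that of Ndufs5, with 6.40, 5.68 and 5.97 CPM with STAT3Y640F, 3.99, 3.52 and 5.27 CPM with STAT3, and 3.79, 3.30 and 4.39 CPM with empty vector (0.67 ± 0.17, adjusted p = 0.0067). Its counts are uncertain, because the mouse genome holds near-identical copies of this gene and the counting command in the file headers has no option for reads that map to several places. Ndufb2 and Ndufb5, subunits of the membrane arm, fell by 0.21 and 0.17 on the log2 scale. The accessory genes summed to 1823 ± 10.5 CPM with STAT3Y640F, 1608 ± 44.8 with STAT3 and 1666 ± 11.8 with empty vector.

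Ndufaf3, which acts early in complex I assembly, had the largest rise of the members in HPCLSK. It had 24.3, 22.3 and 22.6 CPM with STAT3Y640F, 15.5, 14.5 and 15.8 CPM with STAT3, and 13.4, 15.03 and 12.1 CPM with empty vector. The log2 fold change was 0.78 ± 0.09 against empty vector (adjusted p = 4.3e-05) and 0.60 ± 0.09 against STAT3 (adjusted p = 0.00033). In HPC7 it had 16.8, 14.1 and 13.7 CPM with STAT3Y640F, 14.02, 13.8 and 13.01 CPM with STAT3, and 10.3, 12.2 and 10.9 CPM with empty vector, and rose by 0.43 with STAT3Y640F and by 0.29 with STAT3. The rise with STAT3 in HPC7 missed the threshold in 3 of 6 fits with 1 library left out. Its upstream 250 bases, at chr9:108567437-108567686 on the minus strand of GRCm38.p6, are shown because it rose in both lines, and neither they nor the 50 bases after the start held any of the 4 motifs.
Ndufaf3 upstream: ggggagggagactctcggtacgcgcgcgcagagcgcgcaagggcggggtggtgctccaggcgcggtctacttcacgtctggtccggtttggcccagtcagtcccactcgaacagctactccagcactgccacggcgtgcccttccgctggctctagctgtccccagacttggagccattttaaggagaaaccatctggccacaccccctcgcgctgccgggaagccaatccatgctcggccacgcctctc

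Complex II moved in part. Sdhb, its iron-sulphur subunit, had 133, 113 and 115 CPM with STAT3Y640F, 100, 107 and 92.7 CPM with STAT3, and 101, 99.4 and 101 CPM with empty vector (0.27 ± 0.07, adjusted p = 0.0069). Sdhd, a membrane anchor, had 180, 180 and 181 CPM with STAT3Y640F, 151, 160 and 149 CPM with STAT3, and 170, 161 and 161 CPM with empty vector (0.15, adjusted p = 0.016). The catalytic Sdha and the other anchor, Sdhc, did not pass, at 396 and 130 CPM with STAT3Y640F and 413 and 126 CPM with empty vector.

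With STAT3 alone, HPCLSK changed little. No member rose and 5 fell against empty vector (Atp5e, Cox6b2, Ndufa4, Ndufa9 and Uqcr11), while 14.1% of all genes passed, 7.7% upward and 6.37% downward. At an unadjusted p under 0.05, 3 members were higher and 21 lower, and DESeq2 found 1 higher, Cox6a2, at its adjusted threshold. The nuclear median was -0.04. Without the pair of libraries that stood apart, no member rose and 6 fell. The count of falls was 2 without empty vector replicate 1, without empty vector replicate 3 or without STAT3 replicate 1, and 3 without empty vector replicate 2. Atp5e had 81.0, 82.4 and 83.8 CPM with STAT3 and 101, 98.0 and 94.2 CPM with empty vector, groups that do not overlap (-0.24 ± 0.05, adjusted p = 0.0058).

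In HPC7, STAT3Y640F moved members both ways. Against empty vector, 16 of 94 rose and 30 fell, beside 57.3% of all 12683 genes in either direction, 29.5% upward and 27.8% downward. The nuclear median was -0.07 and that of all genes 0.00. At a fold of at least 2, Ndufs4 fell and Cox6a2 and Cox4i2 rose, while 8.18% of all genes reached that size, 4.54% upward and 3.64% downward. Against STAT3, 18 rose and 9 fell, beside 51.2% of all genes, 27.1% upward and 24.1% downward, with a nuclear median of 0.01. Of the 10 progenitor markers, 7 rose and 3 fell against empty vector, with Cd34 at 193 CPM with STAT3Y640F, 41.2 with STAT3 and 609 with empty vector, and Lmo2 at 223 CPM with STAT3Y640F, 126 with STAT3 and 74.9 with empty vector. Their part in the members' change was not tested.

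Ndufs4, an accessory subunit of the NADH-oxidising arm of complex I whose loss in mice causes a Leigh-like brain disease, had the largest fall (chr13:114287795-114388094). It had 34.1, 24.6 and 26.6 CPM with STAT3Y640F, 54.1, 52.7 and 54.9 CPM with STAT3, and 59.9, 65.2 and 61.7 CPM with empty vector. The 3 groups were fully apart, and the log2 fold change of STAT3Y640F was -1.12 ± 0.09 against empty vector (adjusted p = 1.5e-07) and -0.91 ± 0.09 against STAT3 (adjusted p = 1.2e-06). In HPCLSK it had 55.6, 53.8 and 52.0 CPM with STAT3Y640F, 44.0, 48.9 and 49.3 CPM with STAT3, and 44.99, 48.9 and 48.2 CPM with empty vector. The log2 fold change there was 0.19 (adjusted p = 0.022), a rise that missed the threshold in 3 of 6 fits with 1 library left out. The difference between the lines was 1.32 ± 0.12 (adjusted p = 5.8e-08). Neighbours on chromosome 13 moved with it in HPC7: Arl15, 130334 bp away, fell by 1.03 on the log2 scale, Mocs2 by 0.82 and Itga2 by 2.25, while Snx18 rose by 0.32. The other genes tested on the chromosome had a median of -0.07. The 250 bases upstream, at chr13:114388095-114388344 on the minus strand of GRCm38.p6, are shown for this gene as the one that fell most in HPC7. They held none of the 4 motifs, but the RefSeq window of 300 bases, which adds the 50 bases after the start, held the YY1 motif.
Ndufs4 upstream: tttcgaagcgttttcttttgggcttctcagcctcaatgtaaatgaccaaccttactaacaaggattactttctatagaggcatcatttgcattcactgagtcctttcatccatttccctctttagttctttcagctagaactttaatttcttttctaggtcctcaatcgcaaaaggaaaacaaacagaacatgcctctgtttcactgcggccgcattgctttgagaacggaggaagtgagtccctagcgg

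Complex V held opposite changes within one assembly. Atp5d, the delta subunit of the central stalk (chr10:80138632-80145818), had 82.8, 76.7 and 76.5 CPM with STAT3Y640F, 132, 143 and 137 CPM with STAT3, and 131, 156 and 146 CPM with empty vector. Only the STAT3Y640F libraries were low (-0.86 ± 0.06 against empty vector, adjusted p = 3.3e-08). Atp5e, the epsilon subunit that binds delta in the same stalk, had 90.5, 72.2 and 76.1 CPM with STAT3Y640F, 65.6, 70.6 and 66.9 CPM with STAT3, and 46.6, 50.5 and 45.5 CPM with empty vector. It was higher with both forms, by 0.76 ± 0.07 for STAT3Y640F (adjusted p = 9.7e-07) and 0.51 ± 0.07 for STAT3 (adjusted p = 5.6e-05). Atp5k was likewise higher with both, with 165, 143 and 146 CPM with STAT3Y640F, 143, 148 and 147 CPM with STAT3, and 100, 101 and 105 CPM with empty vector. In all, 4 of 17 genes of the complex rose and 6 fell with STAT3Y640F, beside 29.5% of all genes upward and 27.8% downward. Midn, 2454 bp from Atp5d, fell by 0.50 on the log2 scale and Cirbp by 0.30, whereas the overlapping Cbarp rose by 0.28 and Stk11, 7950 bp away, stood at 0.07 (adjusted p = 0.12).

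The stretch upstream of Atp5d is shown because it held the STAT motif, marked in capitals. It lies at chr10:80142189-80142218 on the plus strand of GRCm38.p6, with its first base 86 bases before the first of 2 RefSeq starts. The gene interval in the deposited files, given above, begins further upstream and contains this stretch. The match says nothing of binding, and the chromatin samples were not analysed here.
Atp5d upstream: gaaaactacaaTTCCCAGAAtgacccaccc

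Among the 7 core genes of complex I in HPC7, 3 fell with each form, and 1 rose with STAT3Y640F. Beside these, 27.8% of all genes fell and 29.5% rose with STAT3Y640F, and 25.3% fell with STAT3. Ndufs1 had 191, 196 and 195 CPM with STAT3Y640F, 212, 213 and 222 CPM with STAT3, and 304, 266 and 247 CPM with empty vector. Every library of either form lay below every empty vector library. It fell by 0.47 with STAT3Y640F and by 0.34 with STAT3, the opposite of its rise in HPCLSK. The core genes summed to 844 ± 18.7 CPM with STAT3Y640F, 866 ± 11.6 with STAT3 and 1013 ± 28.0 with empty vector. Ndufa8 went the other way, an accessory subunit with 156, 159 and 149 CPM with STAT3Y640F, 104, 103 and 105 CPM with STAT3, and 109, 115 and 116 CPM with empty vector. It rose by 0.47 ± 0.04 against empty vector and 0.59 ± 0.04 against STAT3. Ndufa8 lies on chromosome 2, whose other genes had medians of 0.47 and 0.43 in these comparisons.

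Between the forms in HPC7, 3 of 8 assembly factors of complex I were higher with STAT3Y640F (37.5%, beside 27.1% of all genes). Ndufaf5 had 19.2, 17.8 and 18.4 CPM with STAT3Y640F and 12.3, 11.4 and 12.4 CPM with STAT3 (0.64 ± 0.09, adjusted p = 3.2e-05). Ndufaf1, which acts in building the membrane arm, had 29.0, 31.1 and 29.9 CPM with STAT3Y640F and 22.3, 21.6 and 22.3 CPM with STAT3 (0.46 ± 0.05). Both genes lie on chromosome 2, whose other genes had a median of 0.43 between the forms. Cox7a2l was higher with STAT3Y640F as well (0.35 ± 0.05), the opposite of its change in HPCLSK.

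In complex II of HPC7, 2 of 4 genes, Sdhc and Sdha, fell with each form. Of all genes, 27.8% fell with STAT3Y640F and 25.3% with STAT3. Sdhc had 91.7, 87.2 and 86.8 CPM with STAT3Y640F, 83.9, 88.0 and 85.4 CPM with STAT3, and 136, 124 and 112 CPM with empty vector, with no overlap between either form and empty vector. The log2 fold change was -0.47 ± 0.06 for STAT3Y640F and -0.53 ± 0.06 for STAT3. Sdha averaged 351 ± 4.43 CPM with STAT3Y640F, 353 ± 3.81 with STAT3 and 416 ± 4.34 with empty vector. Sdhb and Sdhd did not pass against empty vector with either form. Of complex III, Uqcrq rose with STAT3Y640F (0.24) and Uqcrb, Uqcrh and Uqcrc2 fell (-0.29 to -0.16).

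In complex IV of HPC7, Cox6a1, the ubiquitous isoform of subunit 6a, rose with both forms. It had 227, 205 and 203 CPM with STAT3Y640F, 227, 237 and 226 CPM with STAT3, and 151, 182 and 181 CPM with empty vector. Cox5b had 44.1, 42.7 and 42.9 CPM with STAT3Y640F, 39.4, 39.4 and 42.3 CPM with STAT3, and 57.5, 59.7 and 55.2 CPM with empty vector, a fall with both forms. Cox4i1 and Cox7a2, which rose in HPCLSK, did not pass in HPC7: Cox4i1 had 337, 314 and 309 CPM with STAT3Y640F and 284, 328 and 304 CPM with empty vector, and Cox7a2 had 107, 102 and 104 CPM with STAT3Y640F and 104, 112 and 108 CPM with empty vector. The summed level of the complex was 1500 ± 61.6 CPM with STAT3Y640F, 1516 ± 20.7 with STAT3 and 1505 ± 76.2 with empty vector.

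Tissue-restricted isoforms of complex IV stayed rare in all groups. Cox6a2, the heart and muscle isoform of subunit 6a, had 0.720, 0.598 and 0.850 CPM with STAT3Y640F, 0.396, 0.242 and 0.336 CPM with STAT3, and 0.347, 0.171 and 0.146 CPM with empty vector in HPC7. The STAT3Y640F libraries lay above the others (1.75 ± 0.35 against empty vector, adjusted p = 0.00076). In HPCLSK it had 2.63, 3.14 and 1.22 CPM with STAT3Y640F, 3.09, 2.66 and 3.20 CPM with STAT3, and 0.223, 1.47 and 1.45 CPM with empty vector, and neither form passed (adjusted p = 0.080 for STAT3Y640F and 0.072 for STAT3). Both passed as higher, at 2-fold or more, by DESeq2, with no filter on low counts and in a fit of all 18 libraries, and STAT3Y640F also without STAT3Y640F replicate 3. Striated muscle markers summed to at most 1.04 CPM in any group. In HPC7 they summed to 1.04 CPM with STAT3Y640F, 0.935 with STAT3 and 0.474 with empty vector. Tnnt2, the 1 muscle marker tested, rose in HPC7 by 1.20 with STAT3Y640F (adjusted p = 0.0040) and 0.86 with STAT3 (adjusted p = 0.040). Of the neighbours of Cox6a2 in HPC7 with STAT3Y640F against empty vector, the overlapping Itgad stood at 0.24 (adjusted p = 0.25). The others rose, 9130023H24Rik by 0.63, Armc5 by 0.15 and Itgax, 54778 bp away, by 1.13 on the log2 scale. Against STAT3, Cox6a2 rose by 1.19 and Itgax fell by 0.39. Cox4i2, the lung isoform of subunit 4, had 0.622, 0.658 and 0.425 CPM with STAT3Y640F, 0.244, 0.457 and 0.135 CPM with STAT3, and 0.270, 0.128 and 0.320 CPM with empty vector in HPC7. Its call (1.17 ± 0.42, adjusted p = 0.028) missed the threshold without empty vector replicate 2, without STAT3Y640F replicate 1 and without STAT3Y640F replicate 2. The neighbours Id1, Mcts2, Bcl2l1 and Tpx2 rose by 1.43, 1.12, 1.01 and 0.42 on the log2 scale. Cox7a1, the muscle isoform of subunit 7a, averaged 0.568 CPM with STAT3Y640F and 0.853 CPM with empty vector in HPC7 and did not pass. Cox7b2 had 1 count and Ndufa4l2 3 counts over all 18 libraries.

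STAT3 in HPC7 gave 4 rises and 28 falls against empty vector, beside 48.6% of all genes, 23.3% upward and 25.3% downward. The nuclear median was -0.08 and that of all genes 0.00. None reached a 2-fold change, compared with 7.22% of all genes (1.81% upward and 5.41% downward). Complex I accounted for 16 of the falls (3 core and 13 accessory genes), with Ndufa10 lowest of the accessory genes, at -0.37. Atp5mpl, a small proteolipid of complex V, fell most (-0.58 ± 0.06, adjusted p = 3.2e-06), with 63.9, 60.4 and 66.0 CPM with STAT3 and 102, 95.4 and 87.2 CPM with empty vector. The rises were those of Atp5k, Atp5e, Cox6a1 and Ndufaf3. Without empty vector replicate 2, 8 members rose.

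The changes in HPC7 followed chromosomes in part. All 6 members on chromosome 1 (among them Ndufs1, Ndufa10, Sdhc and Cox5b) fell with STAT3Y640F and with STAT3, at medians of -0.41 and -0.39, and the other genes tested on chromosome 1 had a median of -0.34 in both comparisons. All 8 members on chromosome 2, which include Atp5e, Ndufa8, Ndufs3, Atp5c1 and Atp5g3, rose with STAT3Y640F, at a median of 0.42, where the other genes of the chromosome had 0.47. With STAT3 the chromosome 2 members had a median of -0.09 and the other genes 0.03. On chromosome 5, which holds Atp5k and Cox6a1, the members had medians of 0.32 with STAT3Y640F and 0.42 with STAT3, and the other genes 0.33 and 0.36. Of 87 nuclear members tested, 63 changed to the same side of 0 as the rest of their chromosome with STAT3Y640F and 55 with STAT3 in HPC7, against 45 and 44 in HPCLSK. Subtracting the chromosome median lowered the SD of the members' log2 fold changes to 0.30, against 0.38 before it, with STAT3Y640F in HPC7. In HPCLSK it stayed at 0.56. That SD rests mostly on the rare Cox6b2, at -4.66 from 2 counts with STAT3Y640F, so the 2 lines cannot be compared by it. Ndufs4, Atp5d and the chromosome 16 genes Atp5j and Atp5o (-0.51 and -0.42 with STAT3Y640F) fell on chromosomes whose other genes had medians of -0.07, -0.01 and -0.04. Why the chromosomes shifted was not tested.

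Of the 13 mitochondrially encoded mRNAs, 7 had counts. The other 6 (mt-Co2, mt-Atp8, mt-Atp6, mt-Co3, mt-Nd3 and mt-Nd4l) were at 0 in all libraries and lie side by side, from base 7013 to base 10173 of the mitochondrial genome. The mouse reference genome is known to carry a nuclear copy of mitochondrial DNA on chromosome 1, and the 7 annotated genes at chr1:24611535-24616197 had 102 counts in all libraries together. These 6 genes are therefore listed at 0 here and no level is read from them. The block on chromosome 1 is longer than this stretch. Whether it also copies parts of the adjoining mt-Co1 and mt-Nd4 was not tested, so their levels may be affected as well. That reads of this stretch were discarded as mapping to several places was not tested.

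In HPCLSK, 3 of the 7 mRNAs fell with STAT3Y640F against empty vector, beside 28.0% of all genes. Most nuclear members changed upward, and whether the 2 sets differ was not tested. mt-Co1, the catalytic subunit of complex IV, had 4601, 4978 and 4816 CPM with STAT3Y640F, 5699, 5204 and 5183 CPM with STAT3, and 5565, 5655 and 5892 CPM with empty vector. It was lower in every STAT3Y640F library (-0.24 ± 0.06, adjusted p = 0.0062). mt-Nd5 had 2437, 2642 and 2691 CPM with STAT3Y640F, 2816, 2571 and 2802 CPM with STAT3, and 2894, 3073 and 3084 CPM with empty vector (-0.21, adjusted p = 0.013). mt-Nd4 fell by 0.16 on the log2 scale (adjusted p = 0.038). The call of mt-Nd5 was lost without empty vector replicate 3, and that of mt-Nd4 without empty vector replicate 2, empty vector replicate 3 or STAT3Y640F replicate 3. mt-Cytb, of complex III, had 4404, 4678 and 4505 CPM with STAT3Y640F, 5373, 4883 and 5399 CPM with STAT3, and 4565, 5256 and 5582 CPM with empty vector, and did not pass. None of the 7 passed between STAT3Y640F and STAT3. Together the 7 held 1.73 ± 0.0505% of the counts with STAT3Y640F, 2.03 ± 0.0645% with STAT3 and 2.07 ± 0.140% with empty vector.

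In HPC7 only mt-Co1 passed, with 2579, 2849 and 2337 CPM with STAT3Y640F, 2996, 2746 and 2694 CPM with STAT3, and 4161, 2661 and 4291 CPM with empty vector. Empty vector replicate 2 lay among the libraries of the other groups. The fall with STAT3Y640F was -0.50 ± 0.14 (adjusted p = 0.0063), and that with STAT3, -0.40 ± 0.14 (adjusted p = 0.026), was lost in 4 of 6 fits with 1 library left out. The same empty vector library was lowest of its group in all 7 mRNAs, for example mt-Cytb with 5884, 6696 and 5503 CPM with STAT3Y640F, 6506, 6345 and 6208 CPM with STAT3, and 8840, 5264 and 7124 CPM with empty vector.

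With empty vector, 82 of 96 members differed between the lines (85.4%), a share near the 80.6% of all 13891 genes. Of these, 24 were higher in HPCLSK and 58 lower, while 41.6% of all genes were higher and 39.0% lower. The nuclear median was -0.34, against 0.04 for all genes. In these fits 6 members were at least 2-fold higher and 9 at least 2-fold lower in HPCLSK, where 36.4% of all genes passed that size, 22.8% higher and 13.6% lower. Complex III was lower in 6 of 8 genes, led by Uqcrc2 with 233, 209 and 221 CPM in HPCLSK and 481, 482 and 481 CPM in HPC7 (-1.12 ± 0.04, adjusted p = 1.7e-14). Ndufb8, Ndufv3, Ndufab1 and Ndufv2 of complex I and Atp5k of complex V were lower by -1.11 to -1.02.

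Higher in HPCLSK were Atp5e (1.04 ± 0.07), with 101, 98.0 and 94.2 CPM in HPCLSK and 46.6, 50.5 and 45.5 CPM in HPC7, and Atp5s (1.17 ± 0.12). Ndufs5 was higher by 5.43 ± 0.33 on the log2 scale, at 3.83 ± 0.548 CPM in HPCLSK and 0.0820 ± 0.0368 CPM in HPC7. Cox7c, a small subunit of complex IV, was higher by 1.79 ± 0.14, at 12.8 ± 1.21 CPM in HPCLSK and 3.68 ± 0.299 CPM in HPC7. Both these genes have near-identical copies in the genome and a low level here, so these values are uncertain. Other members with pseudogenes, such as Ndufab1, Atp5k, Atp5l and Uqcrh, were not checked for reads lost to copies. The rare Cox6a2 was higher by 2.34 ± 0.53 on the log2 scale, although its lowest HPCLSK library, at 0.223 CPM, lay within the HPC7 range, and Cox7a1 was lower, at -2.31 ± 0.45 on the same scale. Cox6b2 was at least 32.5-fold higher in HPCLSK, from 62 counts against none in HPC7 with a floor of 3 counts over the group. Cox4i2 had 3 counts in HPCLSK and 21 in HPC7, a ratio of 0.225 (95% exact counting interval 0.0429 to 0.752). Of the mitochondrially encoded mRNAs, mt-Co1 was higher in HPCLSK (0.62 ± 0.12) and mt-Nd2, mt-Nd1, mt-Cytb and mt-Nd4 were lower (-1.19 to -0.29). mt-Nd2 had 1510, 2115 and 2242 CPM in HPCLSK and 5654, 3019 and 4758 CPM in HPC7.

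The difference between the lines in the response to STAT3Y640F was tested directly. It was positive, that is more upward in HPCLSK, for 43 of 96 members and negative for 7. Beside these, 48.6% of all genes passed, 25.8% positive and 22.9% negative. The nuclear median was 0.19, against 0.02 over all genes. The 7 negative members include Cox6b2, which had 1 count in HPC7 and so no measurable response there. In complex I, 15 accessory genes were more upward in HPCLSK and none more downward. Cox4i1 (0.31, adjusted p = 0.00075) and Cox7a2 (0.48, adjusted p = 6.0e-06) were among 7 such genes of complex IV. Without the pair of HPCLSK libraries that stood apart, the counts were 38 and 8. Of the nuclear members, 72 of 89 had a difference on the same side of 0 as the other genes of their chromosome, and after subtracting the chromosome median the median was 0.17. For STAT3 the difference was positive for 12 members and negative for 6, beside 30.4% of all genes, 16.5% positive and 13.9% negative.

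Other genes of the same organelle were counted over whole lists, and those named from a list are among the ones that passed with the largest changes. Of all genes tested, 30.6% rose and 28.0% fell with STAT3Y640F against empty vector in HPCLSK, 28.6% and 25.2% against STAT3, and 29.5% and 27.8% with STAT3Y640F against empty vector in HPC7. Of 77 tested mitochondrial ribosomal protein genes, which make the mitochondrial translation machinery, 21 rose (27.3%) and 7 fell (9.09%) with STAT3Y640F against empty vector in HPCLSK, and 32 rose (41.6%) and 3 fell (3.9%) against STAT3. In HPC7, 20 rose (26.0%) and 25 fell (32.5%) with STAT3Y640F against empty vector. With STAT3, 9 rose (11.7%) and 22 fell (28.6%), beside 23.3% and 25.3% of all genes. Mrpl48 fell in HPCLSK with both forms, at 11.7 ± 0.813 CPM with STAT3Y640F, 12.4 ± 2.57 with STAT3 and 22.3 ± 1.71 with empty vector. Mrps30 fell in HPC7 with STAT3Y640F, at 30.6 ± 3.07 CPM with STAT3Y640F and 60.3 ± 2.91 with empty vector. Between the lines, 7 were higher (9.09%) and 62 lower (80.5%) in HPCLSK, beside 41.6% and 39.0% of all genes, with a median of -0.54.

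Of 14 citric acid cycle genes, 5 rose (35.7%) and 2 fell (14.3%) with STAT3Y640F against empty vector in HPCLSK, and 2 rose (14.3%) and 7 fell (50.0%) in HPC7. Fh1, fumarase, is on a chromosome whose other genes had a median of -0.34 in HPC7, and it had 121 ± 3.59 CPM with STAT3Y640F, 150 ± 5.78 with STAT3 and 208 ± 14.5 with empty vector there. Of 35 assembly factors outside the symbol rule, 3 rose (8.57%) and 6 fell (17.1%) with STAT3Y640F in HPCLSK, and 9 rose and 9 fell (25.7% each) in HPC7. Nubpl, which delivers iron-sulphur clusters to complex I, rose in HPCLSK with STAT3Y640F (1.19 ± 0.21) and fell in HPC7 (-1.03 ± 0.17), at 5.34 ± 0.121 CPM with STAT3Y640F and 2.31 ± 0.483 with empty vector in HPCLSK, and at 2.13 ± 0.394 CPM with STAT3Y640F and 4.39 ± 0.513 with empty vector in HPC7. The difference between the lines was 2.23 ± 0.27.

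Of 21 tested regulators of mitochondrial gene expression, 5 rose (23.8%) and 6 fell (28.6%) with STAT3Y640F in HPCLSK, shares near or below those of all genes, and 10 rose (47.6%) and 7 fell (33.3%) in HPC7. Gabpb1, a subunit of the ETS factor GABP, fell by 0.36 on the log2 scale in HPCLSK, at 80.9 ± 7.60 CPM with STAT3Y640F and 105 ± 3.27 with empty vector. Twnk, the mitochondrial DNA helicase, fell by 0.42 in HPCLSK and rose by 0.62 in HPC7. It lies on chromosome 19, whose other genes had a median of 0.24 with STAT3Y640F in HPC7. Tfb2m, which starts mitochondrial transcription, fell in HPC7 with both forms (-0.75 and -0.70). It lies on chromosome 1, whose other genes had a median of -0.34 in both comparisons. Of 18 genes for electron carriers and their synthesis, 3 rose (16.7%) and 5 fell (27.8%) in HPCLSK with STAT3Y640F, and 5 rose (27.8%) and 7 fell (38.9%) in HPC7. Coq4, needed to make ubiquinone, lies on chromosome 2 and rose by 0.84 in HPC7 with STAT3Y640F. Atpif1, the inhibitor of the ATP synthase, averaged 191 ± 13.4 CPM with STAT3Y640F, 181 ± 7.38 with STAT3 and 200 ± 3.14 with empty vector in HPCLSK and did not pass in either line.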

How the data were processed

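RNA from 18 libraries was analysed. The authors deposited raw counts of reads per gene, not normalised. Per the file headers, they were made with featureCounts 1.5.1 at strand setting 2 over exons of GENCODE M13, on STAR alignments. The submitters' processing notes also name Trimmomatic and GRCm38. The kit is named as Lexogen SENSE in one label and as TruSeq Stranded in another. Gene IDs were paired with symbols for 45737 genes with version and 4639 without, leaving 310 unmatched, which held 0.0343% of the counts.

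Within each line, 9 libraries were fitted with edgeR 4.0.16 (R 4.3.3; TMM, filterByExpr, quasi-likelihood test, Benjamini-Hochberg adjustment over all genes, 6 residual degrees of freedom). The comparison of the lines and the line differences used 18 libraries (12 degrees of freedom). CPM are counts over the TMM-adjusted library total of the 18 libraries. Standard errors are the absolute log2 fold change over the square root of F. Counting intervals and the floor of 3 counts cover counting error only. The fits were tested on simulated data. Alternatives were DESeq2 1.42.0, other scaling, other filters, other sample sets, a replicate block and leaving out libraries.

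Members and gene lists were chosen with earlier results of these data known. Named were the 13 mitochondrial mRNAs, Sdha to Sdhd, Atpif1, members with a fold of at least 2, the highest and lowest log2 fold change of each class in each comparison, and tissue-restricted isoforms with their ubiquitous partners. From each other list the rule took at most 2 genes that passed, by size of change. Members named beyond this, such as neighbours of a named gene, were chosen after their values were seen. Of 97 nuclear members, 74 had a RefSeq promoter window. Of these 74, 17.6% held the NRF1 core, 24.3% the ETS motif, 14.9% the YY1 motif and 5.41% the STAT motif. Among all 27025 genes with a window, the shares were 4.01, 9.93, 7.28 and 9.55%. Whether these shares differ was not tested. Not all genes that the rule took are printed.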

Additional observations from a re-analysis of the deposited data

Results flagged for a closer look

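The response of the members below differed between the lines by at least 0.5 on the log2 scale in the test of the difference itself (edgeR, adjusted p under 0.05, HPCLSK minus HPC7, 18 libraries), leaving out Cox6b2, which had 1 count in HPC7 and so no measurable response there. For STAT3Y640F over empty vector, the difference was 1.32 for Ndufs4 and 1.00 for Atp5d. It was 0.72 for Ndufs1, Ndufa5 and Atp5j, 0.68 for Cox5b, 0.65 for Ndufb3 and 0.61 for Uqcrb. It was 0.58 for Atp5o and 0.54 for Sdhc. The negative ones were Atp5e at -0.91 and Ndufaf1, an early complex I assembly factor, at -0.65. For STAT3 over empty vector, Cox5b stood at 0.58, Atp5mpl at 0.52, Cox6a1 at -0.50, Atp5k at -0.54 and Atp5e at -0.76. Several of these genes lie on HPC7 chromosomes whose other genes shifted the same way: Cox5b, Ndufs1, Ndufb3 and Sdhc on chromosome 1, Atp5e and Ndufaf1 on chromosome 2 with STAT3Y640F, and Cox6a1 and Atp5k on chromosome 5. With STAT3 the other genes of chromosome 2 had a median of 0.03 in HPC7, so that this does not hold for Atp5e there. Ndufs4, Atp5d, Atp5j and Atp5o lie on chromosomes 13, 10 and 16, with medians of -0.07, -0.01 and -0.04 in HPC7 with STAT3Y640F.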

How the results depend on the processing

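None of the members' 367 calls reversed its direction under an alternative that tested it. Values that had not passed could: the median log2 fold change of the 7 mitochondrially encoded mRNAs with STAT3 in HPC7 was 0.04 without empty vector replicate 1, against -0.16. Of the calls, DESeq2 kept 346 and lost 21, other normalisation factors (RLE) kept 361 and lost 6, library sizes over nuclear genes kept 364 and lost 3, and a minimum of 5 CPM in 3 libraries kept 337 and lost 18. With no filter on low counts, 8 members rose with STAT3 in HPC7, against 4, and 3 in HPCLSK, against 0. In HPCLSK with STAT3, a fit of all 18 libraries gave 1 rise and 10 falls, DESeq2 gave 1 rise, and the replicate block left 3 falls of 5. Replicate numbers did not pair the libraries (same-number correlations from -0.15 to 0.16 in HPC7 and from -0.30 to 0.16 in HPCLSK), and the block kept 343 calls and lost 24 in all. Without the pair of HPCLSK libraries that stood apart, 8 members fell between STAT3Y640F and STAT3, against 5. With 1 library left out at a time, rises and falls in HPC7 ran from 14 to 18 and 26 to 34 for STAT3Y640F, from 3 to 8 and 24 to 31 for STAT3, and from 14 to 17 and 6 to 9 between the forms. In HPCLSK they ran from 32 to 40 and 7 to 12 for STAT3Y640F, from 0 to 1 and 2 to 4 for STAT3, and from 36 to 51 and 5 to 7 between the forms. The 7 falls with STAT3Y640F were found without empty vector replicate 3. Between the lines they ran from 22 to 25 and 55 to 57, and for the line differences from 39 to 44 and 6 to 9 with STAT3Y640F and from 10 to 14 and 4 to 8 with STAT3. The causes of these shifts were not tested. Depth limits the rare isoforms: 3 counts are up to 0.315 CPM.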
